A study of Mus musculus with 15 samples.

Results

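Heat shock proteins are molecular chaperones, and 9 of their genes were followed here across both parts of the mouse aorta and both diets. The genes were taken from a list of symbols that was chosen with earlier results of these data known. Shares over all genes given beside them are therefore a description and not a test. Those of the mitochondrial matrix are Hspd1 (HSP60), Hspe1 (HSP10) and Hspa9 (mortalin), those of the HSP70, HSP90, HSP110 and HSP40 families in the cytosol are Hspa8, Hsp90aa1, Hsph1 and Dnajb1, and Hspb1 and Cryab encode small heat shock proteins. All 9 had a probe set that names exactly 1 gene, and for each gene the brightest such probe set was used, out of 22180 genes chosen the same way. The values come from 15 microarrays of total RNA from whole aortic tissue of DBA/2NCrl mice, an inbred strain used here at 8 weeks of age when feeding began. Groups were abdominal aorta on a high-phosphate diet (20.2 g phosphorus per kg, n = 4), abdominal aorta on standard chow (7.0 g per kg, n = 4), thoracic aorta on the high-phosphate diet (n = 3) and thoracic aorta on chow (n = 4), each after 5 days. The labels call the arrays biological replicates. The sex of the mice is not stated there, nor whether a mouse gave both of its segments, and how the vessels were freed of surrounding fat is not given in the sources used here.

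Chaperones hold unfolded proteins in solution and help them fold. In the mitochondrial matrix HSP70 (Hspa9) pulls imported proteins through the inner membrane, and the HSP60 ring with its HSP10 lid then folds many of them. In the cytosol the HSP70 Hspa8 works with HSP40 partners such as Dnajb1, which start its ATP cycle, and with the HSP110 Hsph1, which exchanges its nucleotide, while HSP90 completes client proteins such as steroid receptors. Small heat shock proteins bind unfolding proteins without ATP, and Cryab and Hspb1 are abundant in muscle. Several of these genes are induced through heat shock elements, repeats of GAA and TTC bound by heat shock factor.

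Because Hspd1 and Hspe1 lie head to head and share a promoter region, and because heat shock elements link several members, the promoter windows that hold such elements are shown first. RefSeq windows on GRCm38.p6 were each 300 bases long, from 250 before to 50 after an annotated start. Windows were used for 5 of the 9 genes (Hspd1, Hspe1, Hspb1, Hsph1 and Dnajb1). For the other genes no window was searched, and the search of listed genes did not cover every chromosome. The other genes are therefore not shown to lack a window or an element. Capitals mark matches to GAANNTTC, TTCNNGAA or their 3-unit forms GAANNTTCNNGAA and TTCNNGAANNTTC, searched on both strands, with overlapping matches merged. The Hspe1 window lies at chr1:55087898-55088197 on the plus strand, the Hsph1 window at chr5:149636266-149636565 on the minus strand and the Hspb1 window at chr5:135887669-135887968 on the plus strand.
Hspe1: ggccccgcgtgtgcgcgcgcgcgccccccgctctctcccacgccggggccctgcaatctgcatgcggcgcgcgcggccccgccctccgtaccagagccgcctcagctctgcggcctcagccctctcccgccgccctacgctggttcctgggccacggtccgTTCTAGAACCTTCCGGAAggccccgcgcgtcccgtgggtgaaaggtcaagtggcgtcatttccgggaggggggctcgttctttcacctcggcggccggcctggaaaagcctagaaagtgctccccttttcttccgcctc
Hsph1: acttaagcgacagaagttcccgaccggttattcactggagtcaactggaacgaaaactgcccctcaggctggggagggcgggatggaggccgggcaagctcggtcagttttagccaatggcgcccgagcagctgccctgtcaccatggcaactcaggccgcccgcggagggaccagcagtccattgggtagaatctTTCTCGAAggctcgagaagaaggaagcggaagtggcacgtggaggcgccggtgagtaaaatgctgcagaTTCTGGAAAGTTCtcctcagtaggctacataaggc
Hspb1: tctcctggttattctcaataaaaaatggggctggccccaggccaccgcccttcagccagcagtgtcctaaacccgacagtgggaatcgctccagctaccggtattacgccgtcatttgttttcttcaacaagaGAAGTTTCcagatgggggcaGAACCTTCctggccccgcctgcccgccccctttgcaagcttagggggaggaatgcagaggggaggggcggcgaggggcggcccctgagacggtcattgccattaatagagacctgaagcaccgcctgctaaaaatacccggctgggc
The Hspe1 window holds a run of 18 bases, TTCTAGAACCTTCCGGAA, that begins 89 bases before the annotated start. One of the 2 annotated Hspd1 windows, chr1:55087883-55088182 on the minus strand, shares 285 bases with it and holds the same run read on the other strand, 144 bases before that start. The second Hspd1 window held no match. The Hsph1 window holds a 3-unit match, TTCTGGAAAGTTC, that begins 15 bases after this start, and a shorter match 54 bases before it. The Hspb1 window holds only 2-unit matches, GAAGTTTC and GAACCTTC, and neither Dnajb1 window holds any. The 3-unit form was found in 0.609% of 32534 distinct promoter windows and a 2-unit form in 15.1%. Those shares need not cover the same chromosomes as the search of listed genes. For the heat shock genes the 3-unit form was in 4 of the 8 windows used, from 3 of 5 genes (Hspd1, Hspe1 and Hsph1). These 4 windows are not 4 separate sites. The Hspd1 and Hspe1 windows share their run, and another Hsph1 window, chr5:149636287-149636586, overlaps the printed one and holds the same matches. For the other chaperone genes listed the 3-unit form was in 3 of the 84 windows used, from 2 of 68 genes. A match is a description of letters and not a measured binding site.

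Below, levels are log2 intensities as mean ± SD, differences are log2 differences ± SE from a limma model with 4 group means, and a gene was called where its p-value, adjusted by Benjamini and Hochberg's method across the 22180 genes, was under 0.05. Array medians lay between 5.78 and 5.84. The tissue label was checked against smooth muscle genes: Acta2, smooth muscle actin, lay between 10.87 and 12.08 and Myh11, smooth muscle myosin, between 10.35 and 11.49 over all arrays. Other tissue was present as well. Genes of T and NK cells (11, as a mean) read 7.09 to 7.76 in 5 abdominal arrays, namely high-phosphate arrays 1, 2 and 4 with chow arrays 2 and 4, against 5.31 to 5.85 in all others. Hepatocyte genes (11, as a mean) read 8.38 in array 3 and 10.45 in array 4 of abdominal high phosphate, 6.22 in array 4 of thoracic chow, and at most 5.47 elsewhere. In whole tissue, fewer cells of a type and less RNA per cell cannot be told apart.

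**Figure D1:**
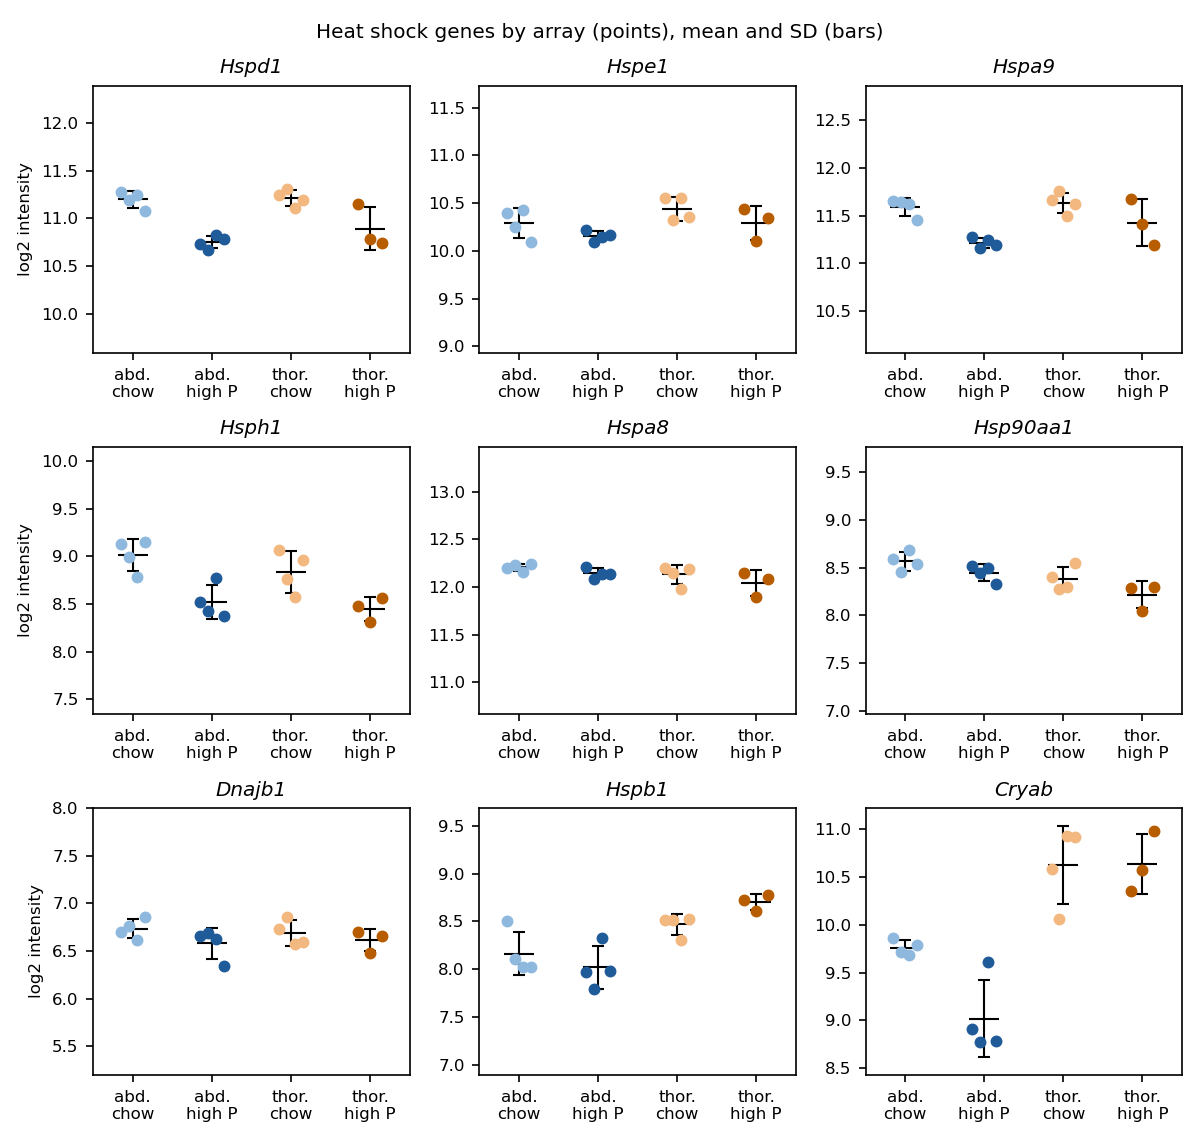
Log2 intensity of each of the 9 heat shock genes by array (points, 4 groups of 3 or 4 arrays), with the group mean and SD as bars. Every panel spans the same range of log2 units. Hspd1 and Hspa9 are lower on high phosphate in the abdominal aorta without overlap, Hspa8 stays between 11.89 and 12.24 in every array, and Cryab is highest in the thoracic arrays.

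The first comparison asks how the high-phosphate diet changed these genes in the abdominal aorta. Of the 9 genes 4 fell, namely the mitochondrial chaperones Hspd1 and Hspa9, the HSP110 gene Hsph1 and the small heat shock protein gene Cryab, and none rose. Over all genes tested 7.01% were called in this comparison (5.06% lower, 1.95% higher). The median change of the 9 was -0.155, against -0.008 over all genes. The estimated change of each of the 5 other genes was below 0, from -0.16 to -0.06, and did not pass the threshold. In the same 4 genes the diet groups did not overlap, as was so for 11.9% of all genes.

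Hspd1, the HSP60 folding ring, read 11.28, 11.19, 11.24 and 11.08 in chow arrays 1 to 4 and 10.73, 10.67, 10.82 and 10.78 in high-phosphate arrays 1 to 4. All high-phosphate arrays lay below all chow arrays, by at least the gap from 10.82 to 11.08. Its level fell by 0.45 ± 0.082 on the log2 scale, 1.36-fold (adjusted p = 0.00324). With each of the 15 arrays left out in turn Hspd1 stayed called.

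Hspa9, the matrix HSP70, read 11.65, 11.64, 11.62 and 11.45 on chow and 11.28, 11.16, 11.24 and 11.19 on high phosphate. The groups again did not overlap, and chow array 4 lay nearest to the high-phosphate arrays. The level of Hspa9 fell by 0.37 ± 0.0876, 1.29-fold (adjusted p = 0.0168). Its call ended without high-phosphate array 2 or chow array 1 (adjusted p = 0.0557 and 0.0614), without the 2 arrays with hepatocyte genes (-0.37, adjusted p = 0.0627), and under quantile normalization (-0.25, adjusted p = 0.0775).

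Hspe1, the HSP10 lid, which shares its promoter region with Hspd1, read 10.40, 10.25, 10.43 and 10.09 on chow and 10.22, 10.09, 10.15 and 10.17 on high phosphate. The groups overlapped, with chow array 4 level with the lowest high-phosphate array. The difference was -0.13 ± 0.0895, with a 95% interval from -0.33 to 0.06 (adjusted p = 0.452). Within arrays, Hspd1 minus Hspe1 was 0.90 ± 0.08 on chow (n = 4) and 0.59 ± 0.07 on high phosphate (n = 4), a shift of -0.31 with no overlap between groups (exact permutation test, two-sided, p = 0.0286, the smallest that 4 against 4 arrays allow, and adjusted p = 0.0857 over 6 such tests). Hspa9 minus Hspe1 shifted by -0.24 with the same p values, and Hspd1 minus Hspa9 by -0.08 (exact permutation test, p = 0.114). With these numbers of arrays no adjusted p over the 6 tests could have fallen under 0.05. The adjustment therefore cannot decide whether Hspd1 and Hspe1 changed unequally, and these pairs were chosen after the values were seen.

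Hsph1, the HSP110 partner of cytosolic HSP70, read 9.13, 8.99, 8.78 and 9.15 on chow and 8.52, 8.43, 8.77 and 8.37 on high phosphate. The groups only just separated, since high-phosphate array 3 reached 8.77 and chow array 3 lay at 8.78. Hsph1 fell by 0.49 ± 0.119, 1.41-fold (adjusted p = 0.0201), a call that ended without high-phosphate array 2 or 4 or chow array 1 (adjusted p = 0.0649, 0.0678 and 0.0742). The other cytosolic genes had estimates closer to 0, and none was called. Hspa8, the constitutive HSP70, lay between 12.16 and 12.24 on chow and between 12.08 and 12.21 on high phosphate, a difference of -0.06 ± 0.0612 with a 95% interval from -0.19 to 0.07. Hsp90aa1, an HSP90 gene, differed by -0.12 ± 0.0816, and Dnajb1, an HSP40 gene, by -0.16 ± 0.0964 (adjusted p = 0.47 and 0.412).

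Cryab, the small heat shock protein alpha B-crystallin, read 9.86, 9.72, 9.68 and 9.79 on chow and 8.91, 8.77, 9.61 and 8.78 on high phosphate. High-phosphate arrays 1, 2 and 4 lay far below chow, and array 3 lay just under it. Cryab fell by 0.74 ± 0.205, 1.67-fold (adjusted p = 0.0389). The call ended in 9 of the 15 fits that left out 1 array (without high-phosphate array 1, 2 or 4, any of chow arrays 1 to 4, thoracic high-phosphate array 2 or thoracic chow array 1), with adjusted p from 0.0512 to 0.119. It ended as well under quantile normalization (-0.70, adjusted p = 0.0519) and with the mean of its 2 single-gene probe sets (-0.68, adjusted p = 0.0545). Hspb1, the small heat shock protein HSP27, lay between 8.02 and 8.50 on chow and between 7.79 and 8.33 on high phosphate, with a difference of -0.14 ± 0.119 (adjusted p = 0.553).

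**Figure D2:**
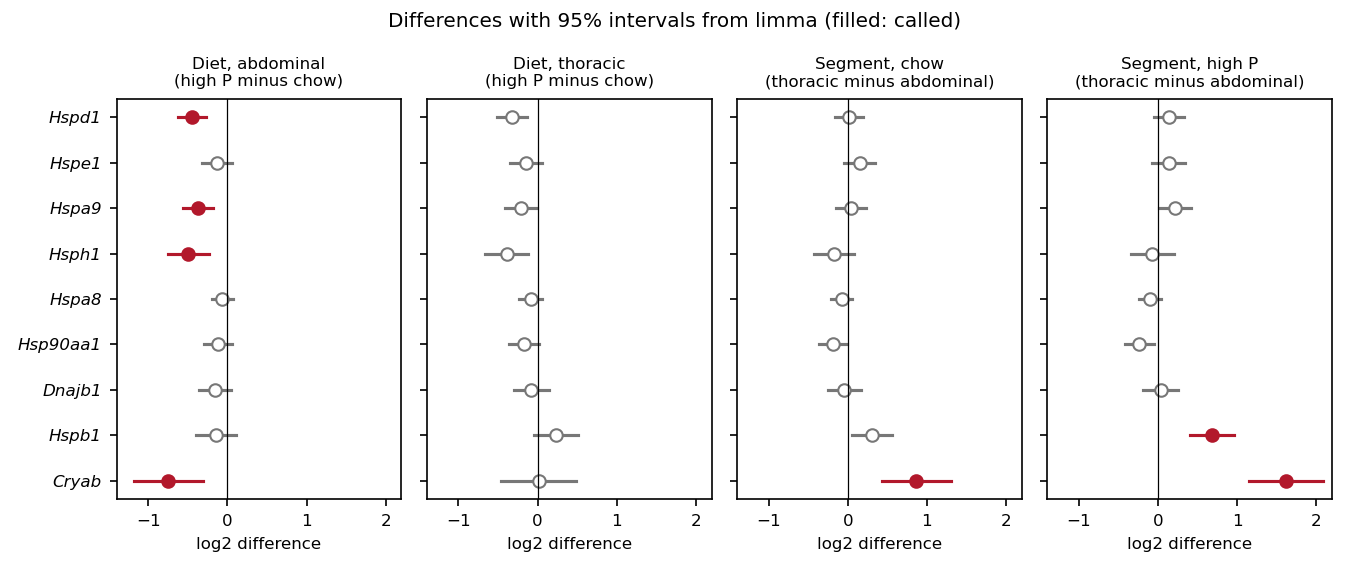
Log2 differences of the 9 genes with 95% intervals from limma, for the diet comparison in each segment (high phosphate minus chow) and the segment comparison on each diet (thoracic minus abdominal). Filled red points were called at an adjusted p under 0.05: Hspd1, Hspa9, Hsph1 and Cryab for the abdominal diet comparison, none for the thoracic one, and Cryab on both diets and Hspb1 on high phosphate between segments.

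Markers of other cells moved with these falls. Of 10 brown adipocyte genes, such as the uncoupling protein Ucp1, 9 fell in the abdominal comparison, and their mean lay between 8.53 and 8.96 in chow arrays and between 7.05 and 7.57 in high-phosphate arrays. Of 11 pan-adipocyte genes 4 fell and of 7 fibroblast genes 5 fell. Of 9 skeletal muscle genes 1 fell, with a list median of -0.50, and their means overlapped between diets. With the brown and pan-adipocyte means as covariates 0 of the 9 heat shock genes were called. The estimates there were 0.26 for Hspd1, 0.27 for Hspa9, -0.91 for Cryab and -0.27 for Hsph1. In that fit limma called 0 of all genes too, and the brown adipocyte mean alone separates the diet groups. The fit therefore cannot decide the sign of any of these estimates. The smooth muscle mean was 8.98 in high-phosphate array 3 and 8.23 to 8.39 in the other 3 high-phosphate arrays, against 8.31 to 9.02 on chow. Array 3 has the highest Cryab, Hsph1, Hspb1 and Hspd1 of its group. Its brown adipocyte, pan-adipocyte, fibroblast and endothelial means (7.57, 9.1, 8.49 and 8.52) are the highest there too. It carries hepatocyte genes and is also the only abdominal high-phosphate array at the low T and NK cell level (5.78). In a fit without the 5 abdominal arrays that carry those genes, which leaves 1 high-phosphate and 2 chow arrays, the lone array being assumed to vary like the other groups, no member was called. There the Hspd1 difference was -0.44 and that of Hspa9 -0.39, close to their values with all arrays, while that of Hsph1 was -0.19 and that of Cryab -0.16.

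**Figure D3:**
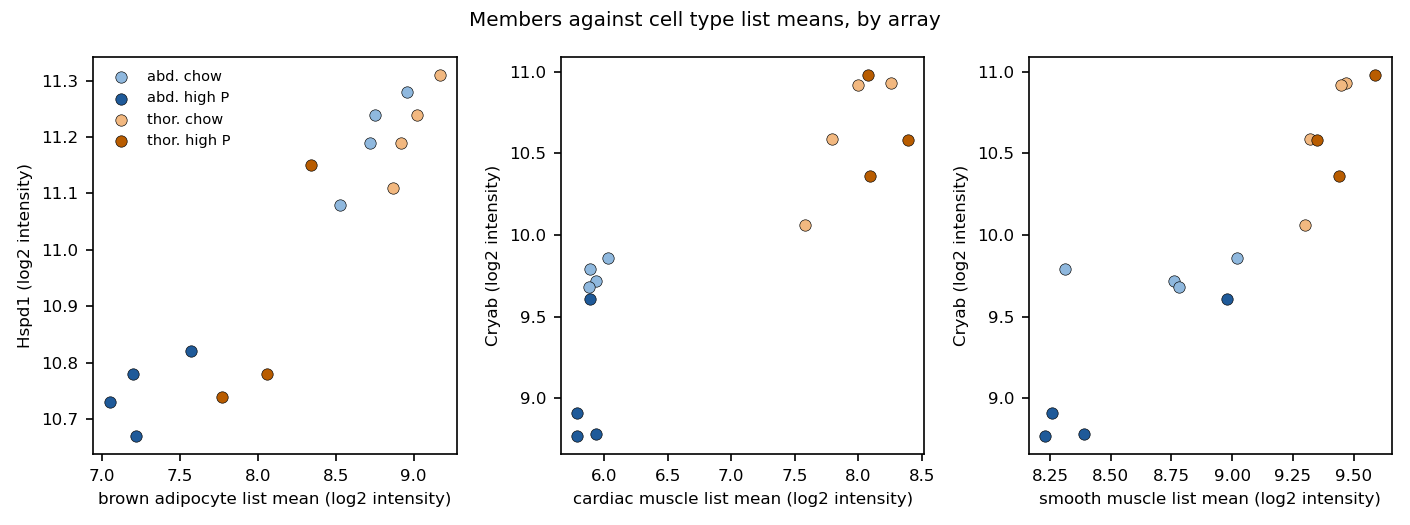
Hspd1 against the mean of 10 brown adipocyte genes (left), and Cryab against the means of 12 cardiac muscle genes (middle) and 11 smooth muscle genes (right), each point 1 array, all axes in log2 intensity. Abdominal high-phosphate arrays are lowest in brown adipocyte mean, thoracic arrays form a separate group at high cardiac mean, and abdominal high-phosphate array 3 sits apart from its group at a Cryab level of 9.61.

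In the thoracic aorta the same question gave no call among the 9 genes. Limma called 2.47% of all genes there (1.39% higher, 1.08% lower). Of the 9 genes 3 had an unadjusted p under 0.05, namely Hspd1, Hspa9 and Hsph1, as did 3051 of all 22180 genes, and all 3 had estimates below 0. The median change of the 9 was -0.148, against -0.011 over all genes. The groups did not overlap for Hsph1 and Hspb1, in opposite directions, against 13.8% of all genes.

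Hspd1 read 11.24, 11.31, 11.11 and 11.19 on chow and 11.15, 10.78 and 10.74 on high phosphate. High-phosphate array 1 lay within the chow range and arrays 2 and 3 below it. The difference was -0.33 ± 0.0886 (adjusted p = 0.0702), and without high-phosphate array 1 it was -0.46 and called (adjusted p = 0.00558). Hspa9 read 11.66, 11.76, 11.50 and 11.62 on chow and 11.68, 11.41 and 11.19 on high phosphate, where array 1 again lay within the chow range. The difference of Hspa9 was -0.20 ± 0.0946 (adjusted p = 0.359). Within arrays, Hspd1 minus Hspe1 was 0.77 ± 0.19 on chow (n = 4) and 0.60 ± 0.17 on high phosphate (n = 3), a shift of -0.17 with overlap (exact permutation test, two-sided, p = 0.286, adjusted p = 0.343, where 0.0571 is the smallest p that 3 against 4 arrays allow). Hspa9 minus Hspe1 shifted by -0.06 and Hspd1 minus Hspa9 by -0.11 (exact permutation test, p = 0.8 and 0.114). High-phosphate array 1 had the highest brown adipocyte mean of its group as well, 8.34 against 8.06 and 7.77, with 8.87 to 9.17 on chow, where 5 of the 10 brown adipocyte genes were called lower. The part of those cells in the result was not tested in this segment beyond the covariate fit, which called 0 of all genes.

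Hsph1 read 9.07, 8.76, 8.57 and 8.96 on thoracic chow and 8.48, 8.31 and 8.56 on high phosphate. All 3 high-phosphate arrays lay below the lowest chow array, which array 3 nearly reached. The difference was -0.39 ± 0.129 (adjusted p = 0.143), and array weights brought both Hsph1 (-0.46) and Hspd1 (-0.33) to an adjusted p of 0.0383. Hspe1 differed by -0.15 ± 0.0966, Hspa8 by -0.09 ± 0.0661, Hsp90aa1 by -0.17 ± 0.0882 and Dnajb1 by -0.08 ± 0.104 (adjusted p = 0.435 to 0.843).

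Neither small heat shock protein gene was called in the thoracic aorta. Hspb1 read 8.52, 8.52, 8.31 and 8.53 on chow and 8.72, 8.61 and 8.78 on high phosphate. All high-phosphate arrays lay above all chow arrays, with a difference of 0.23 ± 0.128 that did not pass (adjusted p = 0.462). Cryab read 10.59, 10.06, 10.93 and 10.92 on chow and 10.36, 10.58 and 10.98 on high phosphate, a difference of 0.01 with a 95% interval from -0.46 to 0.49.

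Whether the diet change differed between segments was tested directly. For the difference of both diet changes (abdominal minus thoracic) limma called 0 of 22180 genes (0%), with 1217 at an unadjusted p under 0.05, and 0 of the 9 heat shock genes, with 2 at an unadjusted p under 0.05. These were Cryab (-0.76 ± 0.301, 95% interval from -1.4 to -0.12, adjusted p = 0.879) and Hspb1 (-0.38 ± 0.174, 95% interval from -0.75 to -0.01, adjusted p = 0.879). For Hspd1 the difference was -0.12 ± 0.121 and for Hspa9 -0.17 ± 0.129. A call in the abdominal but not the thoracic aorta is thus not shown to differ between the segments for any of the 9 genes.

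The second question was how the segments differ. On chow Cryab alone of the 9 genes was higher in the thoracic aorta and none was lower, while 4.78% of all genes were called (1.76% higher, 3.02% lower). On high phosphate Cryab and Hspb1 were higher and none was lower, with 13.8% of all genes called (7.57% higher, 6.25% lower). Segments did not overlap for 1 gene on chow (12% of all genes) and for 3 on high phosphate (23.8% of all genes), the third being Hsp90aa1.

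Cryab stood at 9.76 ± 0.08 (n = 4) in abdominal and 10.63 ± 0.41 (n = 4) in thoracic aorta on chow, 0.86 ± 0.205 higher or 1.82-fold (adjusted p = 0.0244). On high phosphate it stood at 9.02 ± 0.40 (n = 4) and 10.64 ± 0.32 (n = 3), 1.62 ± 0.221 higher or 3.08-fold (adjusted p = 0.000417). In order of level the thoracic groups came first, within their spread of each other, then abdominal chow, then abdominal high phosphate. Its call on chow ended without abdominal chow array 3 or 4 or thoracic chow array 1, 3 or 4 (adjusted p = 0.0573 to 0.0848), and the call on high phosphate held with each array left out. The second single-gene probe set of Cryab gave 0.83 on chow and 1.52 on high phosphate.

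Hspb1 stood at 8.16 ± 0.23 (n = 4) in abdominal and 8.47 ± 0.11 (n = 4) in thoracic aorta on chow, where the difference of 0.31 ± 0.119 did not pass (adjusted p = 0.167) except without abdominal chow array 1 (0.42, adjusted p = 0.0335). On high phosphate it stood at 8.02 ± 0.22 (n = 4) and 8.70 ± 0.09 (n = 3), 0.68 ± 0.128 higher or 1.61-fold (adjusted p = 0.00317). Its other probe set gave 0.60 there. That call held with each array left out.

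Cardiac and smooth muscle markers moved with both small heat shock proteins. Of 12 cardiac muscle genes 9 were higher in the thoracic aorta on chow and 11 on high phosphate, and their mean lay between 5.79 and 6.03 in abdominal and between 7.58 and 8.39 in thoracic arrays. Myh6, the atrial and ventricular myosin heavy chain of the mouse, lay between 4.84 and 5.60 in abdominal and between 8.76 and 10.36 in thoracic arrays. Of 11 smooth muscle genes 7 were higher in the thoracic aorta on chow and 11 on high phosphate, with means of 8.23 to 9.02 in abdominal and 9.30 to 9.59 in thoracic arrays. Of 9 skeletal muscle genes 1 was lower in the thoracic aorta on chow and 0 were called by limma on high phosphate, with medians of -1.17 and 0.12. Of 10 genes of sympathetic neurons and chromaffin cells 8 were lower in the thoracic aorta on chow and 9 on high phosphate, with medians of -2.80 and -2.83. With the brown and pan-adipocyte means as covariates the Cryab difference was 0.86 on chow and 1.76 on high phosphate (adjusted p = 0.114 and 0.155), and that of Hspb1 on high phosphate 0.29 (adjusted p = 0.683). With the cardiac mean as a covariate, which alone separates the segments and under which limma called 0 of all genes between segments, Cryab stood at -1.05 on chow and -0.64 on high phosphate (adjusted p = 1 and 0.98), and Hspb1 at 0.89 on high phosphate (adjusted p = 0.956). Without the 5 abdominal arrays with T and NK cell genes the Cryab difference was 0.86 on chow and 1.03 on high phosphate (adjusted p = 0.104 and 0.155), and that of Hspb1 on high phosphate was 0.37 (adjusted p = 0.387).

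The other 7 genes showed no call between segments. Hsp90aa1 was nearest, at 8.45 ± 0.09 (n = 4) in abdominal and 8.21 ± 0.14 (n = 3) in thoracic aorta on high phosphate, a difference of -0.23 ± 0.0882 without overlap (adjusted p = 0.0937). Hspa9 on high phosphate was 0.21 ± 0.0946 higher in the thoracic aorta (adjusted p = 0.158), and called without thoracic high-phosphate array 3 (0.33, adjusted p = 0.0299). For Hspd1 the intervals ran from -0.16 to 0.19 on chow and from -0.05 to 0.33 on high phosphate, and for Hspa8 from -0.21 to 0.05 and from -0.25 to 0.04.

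Once group means were removed, 1 of the 36 pairs of members varied together over the 15 arrays beyond adjustment. Hspd1 and Hspa9 had Pearson's r = 0.907 (permutation p = 4e-05, adjusted p = 0.00144 over 36 pairs) and Spearman's rho = 0.843 (permutation p = 0.00022, adjusted p = 0.00792). Without the 2 arrays farthest from the median of Hspd1, thoracic high-phosphate arrays 1 and 3, r was 0.815, and within segments it was 0.773 over 8 abdominal and 0.942 over 7 thoracic arrays. Hspd1 and Hspe1, with their shared promoter region, had r = 0.443 (permutation p = 0.0884, adjusted p = 0.318) and rho = 0.414 (permutation p = 0.127, adjusted p = 0.396), with r = 0.425 without the same 2 arrays. Within segments that r was 0.801 over 8 abdominal and 0.294 over 7 thoracic arrays. Both genes of a pair are read from the same arrays and so share RNA and normalization. Removing group means ties the deviations of a group to each other. The Hspd1 SD was 0.23 in thoracic high-phosphate arrays and 0.07 to 0.09 in the other groups. The permutations shuffled all 15 deviations freely, so their p values may be too small. Of the 36 pairs 30 had r above 0, with a median of 0.261.

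**Figure D4:**
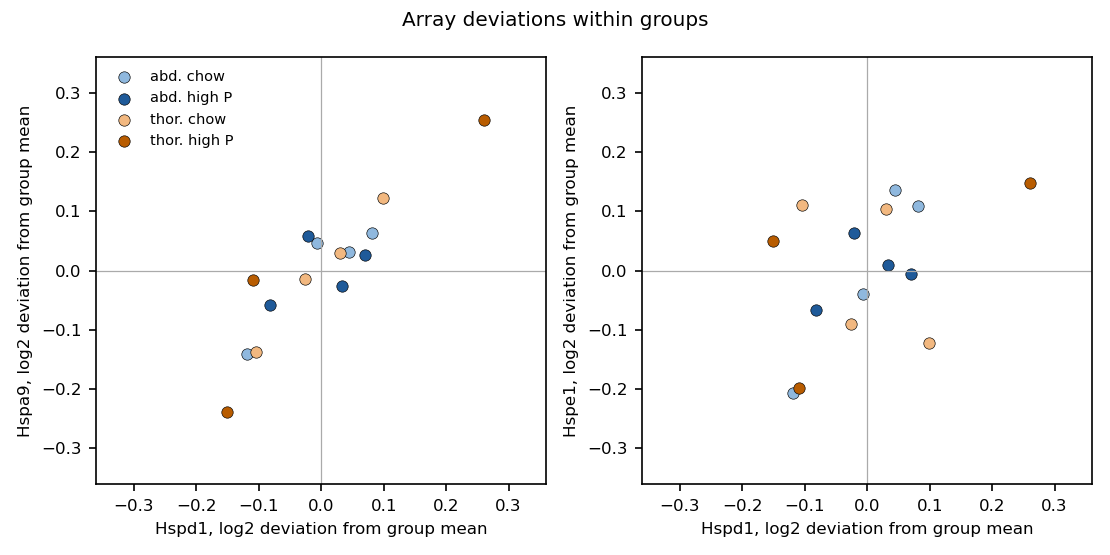
Deviation of each array from its group mean (log2 units) for Hspd1 on the x axis against Hspa9 (left) and Hspe1 (right), 15 arrays coloured by group. Hspd1 and Hspa9 lie along 1 line (r = 0.907), with thoracic high-phosphate array 1 at the upper end, while Hspd1 and Hspe1 scatter more widely (r = 0.443).

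Genes with the most similar pattern over all 15 arrays, group differences included, were listed by Pearson's r as a description. For Hspd1 they were Abcd3 (0.985), a peroxisomal membrane transporter, Paqr9 (0.977) and Apmap (0.976), an adipocyte membrane protein. For Hspa9 they included Dgat2 (0.977), an enzyme of triglyceride synthesis. For Hsph1 they were She (0.929), Me1 (0.909), the cytosolic malic enzyme, and Insig1 (0.905), a brake on sterol synthesis. For Cryab they were Mb (0.966), the oxygen carrier myoglobin of muscle, Nupr1 (0.965) and Myl6 (0.962), a myosin light chain. For Hspb1 they were Pgr (0.97), the progesterone receptor, Stbd1 (0.968) and Myom1 (0.952), a protein of the sarcomere. For Hspa8, Hsp90aa1, Dnajb1 and Hspe1 no gene passed 0.884.

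Other genes that serve these chaperones were read from lists of 82 symbols, of which 74 were measured. These lists too were chosen with earlier results of these data known. In the abdominal diet comparison 10 of the 74 fell and 2 rose, with a median of -0.10, where 5.06% of all genes fell and 1.95% rose. The list of mitochondrial chaperones, import machinery and proteases held most of the falls: 7 of its 20 measured genes fell and none rose, with a median of -0.31 against -0.008 over all genes. Timm50, a receptor of the inner membrane translocase, fell from 8.18 ± 0.23 to 7.41 ± 0.17 (n = 4 each), by 0.77 ± 0.121 (adjusted p = 0.00106). Dnaja3, the matrix HSP40, fell by 0.78 ± 0.14 and Grpel1, the nucleotide exchange factor of Hspa9, by 0.56 ± 0.0966. Pam16, part of the import motor with Hspa9, fell by 0.44 ± 0.0798. Trap1, the mitochondrial HSP90, which was listed apart from these 20, fell from 9.05 ± 0.26 to 8.30 ± 0.06, by 0.75 ± 0.143 (adjusted p = 0.00441). In this comparison 9 of 10 brown adipocyte genes fell too, with a list median of -1.36. Their part in these falls was not tested beyond the adipocyte covariate fit, which called 0 of all genes.

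In the thoracic aorta 1 of the 20 mitochondrial genes fell, Timm50 (by 0.55 ± 0.131, adjusted p = 0.0394), with a list median of -0.21 against -0.011 over all genes. Timm44, the membrane anchor of the import motor, stood at -0.50 ± 0.134 (adjusted p = 0.0665), and Trap1 at -0.41 ± 0.154 (adjusted p = 0.221). Between segments on high phosphate 7 of the 20 were higher in the thoracic aorta, led by Grpel1 (0.65 ± 0.104, adjusted p = 0.00125), and on chow 0 of 20 were called by limma, where Grpel1 came nearest (0.35 ± 0.0966, adjusted p = 0.0524). Of all genes 7.57% were higher in the thoracic aorta on high phosphate. In that comparison 5 of 10 brown adipocyte genes (Ucp1 by 1.60 ± 0.396, adjusted p = 0.0155), 5 of 11 pan-adipocyte genes and 4 of 7 fibroblast genes were higher too, and their part in the result was not tested. None of the 20 was called for the difference of the diet changes.

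**Figure D5:**
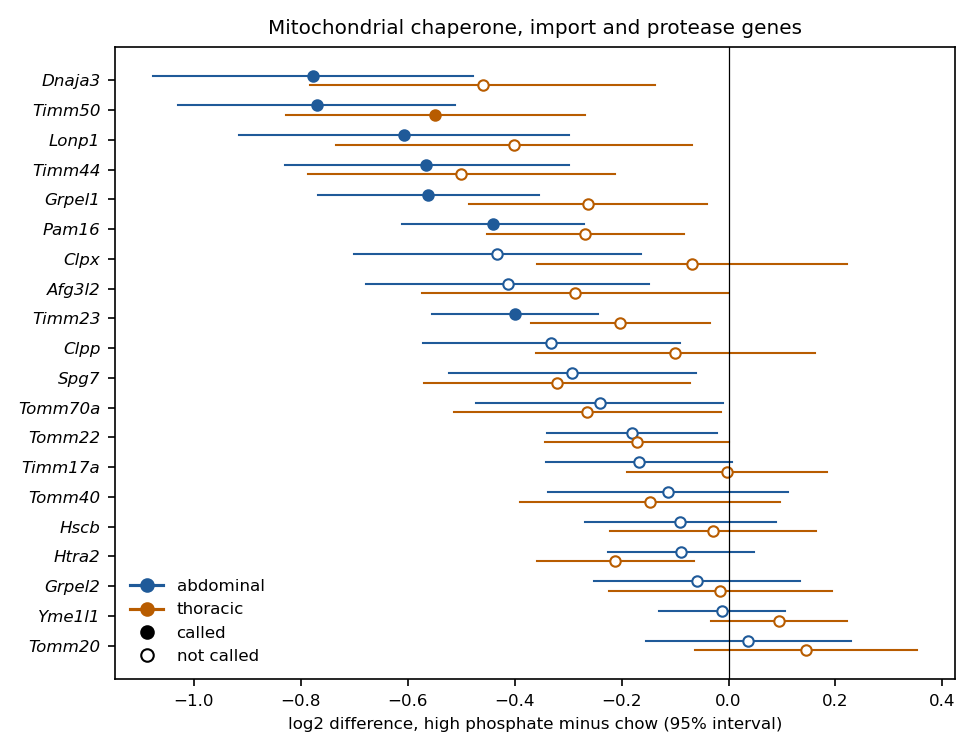
Log2 difference between high phosphate and chow, with 95% intervals, for the 20 measured genes of mitochondrial chaperones, import and proteases, in abdominal (blue) and thoracic (orange) aorta. Filled points were called. In the abdominal aorta 7 are called and 19 lie below 0, and in the thoracic aorta 1 is called and 18 lie below 0.

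Cytosolic helpers were mixed. Of 14 cochaperones Fkbp5, an HSP90 partner of steroid receptors that is induced by glucocorticoids, rose in the abdominal (1.79 ± 0.163, adjusted p = 3.11e-05) and thoracic aorta (1.68 ± 0.176, adjusted p = 0.000384). Fkbp4, the related HSP90 partner, fell in both (-0.35 ± 0.0754, adjusted p = 0.0104, and -0.41 ± 0.0814, adjusted p = 0.0172). Bag1, a nucleotide exchange factor of HSP70, fell in the abdominal aorta (-0.38 ± 0.0849, adjusted p = 0.013). Of 8 HSP40 genes Dnajc7 rose there (0.28 ± 0.0711, adjusted p = 0.0277). Of 13 genes of the TRiC chaperonin and prefoldin, which fold actin and tubulin, limma called 0 in either diet comparison.

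The stress-inducible HSP70 genes Hspa1a and Hspa1b are near-identical copies, so their probe sets may not tell them apart. Hspa1a lay between 7.05 and 8.97 on abdominal chow and between 6.63 and 7.42 on high phosphate, a difference of -1.13 ± 0.359 with overlap that did not pass (adjusted p = 0.075). Hspa1b stood at -1.22 ± 0.432 (adjusted p = 0.115). In the thoracic aorta the differences were -0.65 and -0.61 (adjusted p = 0.521 and 0.656). Of the 10 other HSP70 and HSP110 genes limma called 0 in either diet comparison. The list of heat shock factors held 4 genes, of which 3 were measured: Hsf2, Hsf4 and Hsbp1, a binding protein of the factors. These were called in none of the 5 comparisons. Hsf1 was not measured, so nothing is known of its level here.

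Other small heat shock protein genes were called between segments as well. Hspb7, a heart and muscle member, was 1.02 ± 0.166 higher in the thoracic aorta on chow (adjusted p = 0.00225) and 1.49 ± 0.18 higher on high phosphate (adjusted p = 0.000196), from 6.08 ± 0.33 (n = 4) to 7.57 ± 0.14 (n = 3). Hspb6, the HSP20 of smooth and cardiac muscle, was 0.36 ± 0.11 higher on high phosphate (adjusted p = 0.0401) and stood at 0.37 ± 0.102 on chow (adjusted p = 0.0524). Of the 5 other small heat shock protein genes measured 0 were called for either diet comparison.

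Several members had more than 1 probe set. Hspa8 had 4 single-gene probe sets, 2 of which differed by at most 0.0328 in any array (r = 0.991), and all 4 had estimates below 0 in both diet comparisons, from -0.07 to -0.06 in the abdominal and from -0.22 to -0.09 in the thoracic aorta. The second Cryab probe set followed the first with r = 0.992, and the second Hspb1 probe set with r = 0.922. In a limma fit over all probe sets neither Cryab set was called for the abdominal diet comparison. There the second gave -0.62 (adjusted p = 0.118) and the first -0.74 (adjusted p = 0.063). A probe set that names both Hspb2 and Cryab, neighbouring genes, was not used for either.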

How the data were processed

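The authors deposited 1 value per probe set and array, read here as log2 intensity. RMA, a method that summarises and normalizes arrays, and the Partek software are listed in the submitters' processing notes without saying how either was used, and the log base was inferred from the range, 1.38 to 13.33. No scanner files or detection calls were used here, so signal over background is unknown and scan batches could not be looked for. Precision is set by the number of arrays.

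Of 41345 probe sets 23521 name 1 gene, which gave 22180 genes with the brightest probe set by mean over 15 arrays. Groups came from the array titles. A model of 4 group means was fitted to all genes with limma 3.58.1 under R 4.3.3, using lmFit and a trended eBayes prior, with 11 residual degrees of freedom, and p-values were Benjamini-Hochberg adjusted over all genes in each of 5 comparisons. The script was tested on simulated data. Correlations used 100000 permutations in scipy 1.17.1.

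Members and lists were chosen with earlier results of these data known. All members were named, up to 4 genes per other list and comparison by smallest p, and 3 most similar genes per member, of which some are not printed. Alternatives changed the prior, dim-gene filter, samples, normalization, weights, probe sets, replicate block, threshold and adipocyte covariates, or left out arrays. The cardiac covariate was chosen after seeing the data. Replicate numbers were not treated as pairs.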

Additional observations from a re-analysis of the deposited data

Results flagged for a closer look

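In 27 sets of 4 arrays (9 genes in 3 groups) the highest or lowest array was compared with the others by Dixon's ratio of gap to range, and 3 passed its 95% critical value, where chance flags about 1 set in 20. Cryab in abdominal high-phosphate array 3 read 9.61, against 8.77 to 8.91 in the other 3 arrays (ratio 0.83). Hspa9 in abdominal chow array 4 read 11.45, against 11.62 to 11.65 (ratio 0.838). Hspb1 in thoracic chow array 3 read 8.31, against 8.52 to 8.53 (ratio 0.954).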

How the results depend on the processing

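In the abdominal diet comparison 1554 genes were called, 1026 with only the compared groups in the fit, 137 without the 5 arrays with T and NK cell genes and 0 with adipocyte covariates. The heat shock genes called there went from 4 to 2 under quantile normalization, to 0 without those 5 arrays and to 0 with adipocyte covariates, under which Hspd1 and Hspa9 turned to 0.264 and 0.271. In the thoracic comparison 548 genes were called, 907 with array weights, 992 at an adjusted p under 0.1, 0 with adipocyte covariates and 172 with the cardiac covariate, and members called rose from 0 to 2 with array weights, to 1 without dim genes and to 1 at an adjusted p under 0.1. For the difference of the diet changes 0 genes were called, and 43 without the 5 arrays. Between segments on chow 1061 were called, 1795 at an adjusted p under 0.1, 673 with adipocyte covariates, 496 without the 5 arrays and 0 with the cardiac covariate. On high phosphate 3067 were called, 16 with adipocyte covariates, 466 without the 5 arrays and 0 with the cardiac covariate. The members called between segments (1 on chow, 2 on high phosphate) went to 0 in each of these 3 fits on both diets. With adipocyte covariates Cryab kept its size, at 0.861 on chow and 1.762 on high phosphate, and Cryab turned to -1.054 on chow and -0.643 on high phosphate with the cardiac covariate. The brown adipocyte mean does not overlap between diets in either segment, nor the cardiac mean between segments on either diet, while both adipocyte means overlap between segments on chow. The causes of these shifts were not tested. The fit with only the compared groups gives no value for the difference of the diet changes, which needs all 4 groups.

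With 1 array left out, the abdominal diet count ran from 891 to 2249 genes and 1 to 4 members, the thoracic from 209 to 605 and 0 to 1, the difference from 0 to 1 gene and 0 members, the chow segment count from 500 to 1369 and 0 to 2, and the high-phosphate one from 1695 to 4025 and 2 to 3. A replicate block left every member count as it was (4, 0, 0, 1 and 2) and gave 1692, 646, 0, 1126 and 2670 genes. That block gave arrays of the same number 1 shared effect across both diets and both segments. It therefore did not test a pairing of segments within a mouse. Same-numbered arrays of both diets, which are different mice, deviated with r from -0.25 to 0.4. Between segments, where they could share a mouse, r ran from 0.03 to 0.069 on chow, with 4 of 8 arrays closest to their own number, and from 0.031 to 0.12 on high phosphate, with 6 of 6. The second is a hint from the data, but in no comparison was every r over 0.1, so the numbers were not taken as pairs. The number of arrays limits what can be seen, and signal over background is unknown.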
